A study of Mus musculus with 4 samples.

Results

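Solute carriers (SLC) are the largest superfamily of membrane proteins that move small molecules across membranes, and 152 of the 9114 genes in the deposited table of meningeal lymphatic endothelial cells carry an SLC name (Slc or Slco followed by a number). The members were taken by name from the rows of that table. Those rows were limited on replicate agreement, and earlier results of these data were known when the name rule was set. The members span 38 numbered families, and the gene names of the reference list 394 symbols of this form. The other symbols are not analysed here. All 152 members passed the filter on low values, a mean of at least 10 normalised counts over the libraries, and all matched a gene of the annotation.

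The treated mice received AAV1-CMV-mVEGF-C, an adeno-associated virus of serotype 1 carrying mouse VEGF-C under the CMV promoter, and the controls AAV1-CMV-eGFP, the same kind of vector with a green fluorescent protein. Both groups were male C57BL/6J mice aged 20 to 24 months, given 5 µL into the cisterna magna 4 weeks before the cells were taken, so both carried a virus and both were old. Sorted cells were negative for DAPI and CD45 and positive for CD31 and podoplanin. Each library pooled the meninges of 10 mice, and there were 2 libraries per group. The CMV promoter is not restricted to one cell type, and the sort gate does not by itself separate lymphatic from every other podoplanin-bearing endothelial cell.

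Solute carriers work by alternating access: the protein opens to one side of the membrane, binds its substrate, and opens to the other, driven by the substrate's own gradient or by that of sodium or protons. Families are numbered by sequence similarity, and members of a family often share a substrate class. In endothelium they feed the cell with glucose through GLUT1, with amino acids through LAT1 and the system A carriers, and with metals through ZIP proteins, and they pass metabolites between blood or lymph and tissue. Inside the cell, the mitochondrial family exchanges ATP, phosphate and metabolites across the inner membrane, and the nucleotide sugar carriers supply the Golgi with activated sugars for glycosylation.

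The 4 libraries held 25610683 to 28632461 recovered reads on the genes of the table, of which members took 0.942% and 1.04% in the mVEGF-C libraries, against 1.09% and 1.07% in the eGFP libraries. Markers of lymphatic endothelium were in the table for 12 of 12 listed genes, with summed levels of 533876 to 654544 normalised counts in mVEGF-C, against 501528 to 571728 in eGFP libraries. Of 12 fibroblast markers 10 were present, summing to 87402 to 119131 in mVEGF-C, against 86565 to 108648 in eGFP libraries. Of 12 blood endothelial markers 10 were present, summing to 84448 to 90770 in mVEGF-C, against 78311 to 118672 in eGFP libraries. Mural markers (5 of 10) summed to 13248 to 18064 in mVEGF-C, against 22693 to 28796 in eGFP libraries. Of the mural genes only Abcc9 and Notch3 had separate groups, both lower in mVEGF-C. Rgs5, Kcnj8 and Pdgfrb overlapped between the groups (log2 fold changes -0.56, -1.22 and 0.94). Arachnoid and epithelial markers (3 of 8) summed to 1265 to 3791 in mVEGF-C, against 6054 to 20592 in eGFP libraries. The separation of the arachnoid and epithelial sums rests on Ttr, a gene of choroid plexus epithelium given further on. The list's other 2 genes overlapped between the groups. Cldn11 had 2339.5 and 333 normalised counts in the mVEGF-C libraries, against 1494 and 309 in the eGFP libraries (log2 fold change 0.38), and Dpp4 had 940.1 and 109 normalised counts in the mVEGF-C libraries, against 612 and 699 in the eGFP libraries (-1.03). Neural and glial markers (4 of 10) summed to 557 to 1631 in mVEGF-C, against 688 to 914 in eGFP libraries, and erythroid markers (2 of 6) to 238 to 1140.0 in mVEGF-C, against 901 to 2534 in eGFP libraries. Leukocyte markers (3 of 10) came to 23429 to 28589 in mVEGF-C, against 28289.7 to 33202 in eGFP libraries, nearly all of it Mrc1, a macrophage gene that is also known from lymphatic endothelium. The cells were sorted as CD45-negative. The T cell gene Cd3e had 0 and 7.43 normalised counts in the mVEGF-C libraries, against 15.2 and 12.8 in the eGFP libraries. Itgam, a gene of myeloid cells, had 76.9 and 123 in the mVEGF-C libraries, against 698 and 310.0 in the eGFP libraries. The part of these other cells in the members' results was not tested, and in bulk RNA fewer cells of a type cannot be told apart from less RNA per cell.

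The most abundant transporter genes were those of amino acids, bicarbonate, organic anions and vitamin C. Compared per kilobase of merged exons, Slc38a2 stood first, at 3225 normalised counts per kilobase, higher than 98.3% of all genes tested. It encodes SNAT2, a sodium-coupled carrier of small neutral amino acids that cells induce when starved of amino acids. Slc4a10, a sodium-driven bicarbonate transporter, followed at 2316 per kilobase, then Slco2b1, an organic anion transporter, at 2139.9. Slc43a3, a purine nucleobase transporter despite its place in an amino acid family, had 1983 per kilobase, and Slc23a2, the sodium-coupled vitamin C transporter SVCT2, had 1922. The copper genes Slc31a2 and Slc31a1 stood at 1747 and 1192 per kilobase, and the ADP/ATP carriers Slc25a4 and Slc25a5 at 1171 and 955. The order of neighbours was not stable between libraries. Slc4a10 had 2095 and 3666 normalised counts per kilobase in the mVEGF-C libraries, against 2595 and 907 in the eGFP libraries, which spans the means of the members ranked around it.

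By number of reads, the 10 most abundant members were Slc38a2, Slc23a2, Slc4a10, Slco2b1, Slc38a6, Slco3a1, Slc43a3, Slc7a2, Slc4a4 and Slc26a2. None of them was called between the groups, against 2.14% of all genes tested. Slc38a2 had 25108 and 32505 normalised counts in the mVEGF-C libraries, against 36124 and 20275 in the eGFP libraries. The groups overlapped, and the log2 fold change was 0.08 (95% interval -0.59 to 0.75; limma, adjusted p = 0.973), which turned to -0.0056 when the libraries were rescaled to the same total. Slc23a2 had 16315 and 17772 normalised counts in the mVEGF-C libraries, against 14263 and 12788 in the eGFP libraries. The groups did not overlap, and the mVEGF-C mean was higher by 0.33 on the log2 scale (interval -0.56 to 1.23, limma adjusted p = 0.889). Slco2b1 had 17295 and 15072 normalised counts in the mVEGF-C libraries, against 9262 and 9368 in the eGFP libraries, again without overlap, with a log2 fold change of 0.79 (interval -0.19 to 1.77, limma adjusted p = 0.593).

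The question put to the members was whether their levels differed between VEGF-C and control vector. At a limma adjusted p under 0.05, the cells given mVEGF-C had 2 members up and 2 down. This is 2.63% of the 152 members, against 2.14% of the 9063 genes tested. By direction this is 1.32% higher against 0.828% of all genes, and 1.32% lower against 1.31%. A share this near the background is no result about solute carriers as a group. At an unadjusted p under 0.05 there were 23 members, or 15.1%, against 11.8% of all genes, 13 of them higher (8.55% against 5.09%) and 10 lower (6.58% against 6.7%). The median log2 fold change of the members was -0.12, against -0.02 for all genes, and the median size of the change 0.85 against 0.79. Groups that did not overlap were seen for 67 members, 44.1% against 39.2%, with 34 higher (22.4% against 19.4%) and 33 lower (21.7% against 19.8%). A fold change above 0 was found for 72 members, 47.4% against 49.5%. The p-values are too small by an unknown amount, because the rows of the table were limited on replicate agreement and the variance came from the trend alone. Among members the largest within-group SD of log2(reads + 1) was 2.73 for the mVEGF-C pair and 1.99 for the eGFP pair, against 2.999 and 1.9996 over the whole table.

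**Figure D1:**
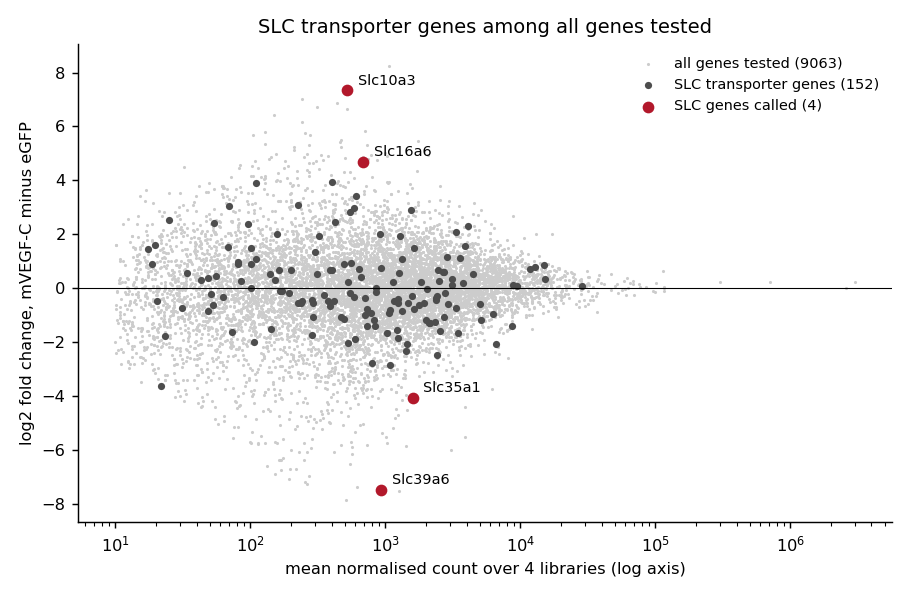
Log2 fold change (mVEGF-C minus eGFP, on the log2 of normalised count + 1) against the mean normalised count over 4 libraries (log axis), for all 9063 genes tested in grey, the 152 SLC genes in dark grey and the 4 called SLC genes in red. The SLC genes spread over the range of the other genes at like abundance, and the 4 called ones lie at 7.35, 4.69, -4.07 and -7.49.

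The 2 members called higher were Slc10a3 and Slc16a6. Slc10a3 (ENSMUSG00000032806.13, chromosome X, 74369217 to 74373349 on the assembly GRCm38) belongs to the bile acid transporter family but has no known substrate. It had 349 and 1711 normalised counts in the mVEGF-C libraries, against 9.85 and 1.07 in the eGFP libraries, so that it was near 0 in both control libraries and moderately abundant in both treated ones. The value in eGFP 2 is 1 recovered read. The log2 fold change was 7.35 ± 1.31 (SE; limma, adjusted p = 2.47e-05). Without eGFP 2 it stood at 6.16 and was not called (limma, adjusted p = 0.19). Its annotated exons share 258 bases, or 12.8% of their length, with those of Ubl4a on the same strand. Ubl4a has no row here, so reads from the shared stretch cannot be assigned to 1 of the 2 genes.

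Slc16a6 (ENSMUSG00000041920.14, chromosome 11, 109450855 to 109473598) encodes the monocarboxylate transporter MCT7, which exports ketone bodies from hepatocytes in zebrafish. It had 1032 and 1604 normalised counts in the mVEGF-C libraries, against 35.8 and 66.3 in the eGFP libraries. Both treated libraries were far above both controls, and the 2 libraries of each group were close to each other. On the log2 scale the difference was 4.69 ± 1.24 (SE; limma, adjusted p = 0.0126). The call was lost without mVEGF-C 2 (log2 fold change 4.38; limma, adjusted p = 0.0538), without eGFP 1 (4.26; 0.279), without eGFP 2 (5.13; 0.334) and in eBayes without trend (4.69; 0.0584). Its exons share 1052 bases, 21.5% of their length, with Amz2 on the opposite strand, and the strand setting of the counting is not given in the sources used here. Amz2 itself had 3112 and 2061 normalised counts in the mVEGF-C and 501 and 1979 in the eGFP libraries and was not called (limma, adjusted p = 0.677).

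The 2 members called lower were Slc39a6 and Slc35a1. Slc39a6 (ENSMUSG00000024270.11, chromosome 18, 24579881 to 24603817) encodes ZIP6, a zinc importer of the plasma membrane. Its level was 4.27 and 18.6 normalised counts in the mVEGF-C libraries, against 1568 and 2127 in the eGFP libraries. Both treated libraries were close to 0, and both controls lay above the median gene of the table, at 828. Its log2 fold change was -7.49 ± 1.28 (SE; limma, adjusted p = 8.70e-06), and without eGFP 2 it was -7.27 and not called (limma, adjusted p = 0.108).

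Slc35a1 (ENSMUSG00000028293.14, chromosome 4, 34663257 to 34687438) encodes the Golgi transporter of CMP-sialic acid, which supplies sialic acid for the ends of glycan chains. It had 199 and 87.3 normalised counts in the mVEGF-C libraries, against 972 and 5105 in the eGFP libraries. The groups were separate, but the 2 controls differed from each other about as widely, as a ratio, as the lower of them differed from the higher treated library. Its log2 fold change was -4.07 ± 1.16 (SE; limma, adjusted p = 0.0281). The call was lost without mVEGF-C 2 (log2 fold change -3.48; limma, adjusted p = 0.0982), without eGFP 1 (-5.26; 0.126), without eGFP 2 (-2.87; 0.999) and in eBayes without trend (-4.07; 0.132). Ttr, a marker of choroid plexus epithelium listed with the arachnoid and epithelial genes, was also lower, with 512 and 824 normalised counts in the mVEGF-C libraries, against 3947 and 19584 in the eGFP libraries. The list's other 2 genes, Cldn11 and Dpp4, overlapped between the groups (log2 fold changes 0.38 and -1.03), and the part of such cells in the members called lower was not tested.

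Promoter windows of RefSeq on GRCm38.p6 were matched by symbol for the members with the smallest adjusted p, the 4 called ones and the 2 next in line, Slc6a17 and Slc22a3. Of these 6, an entry was found for Slc35a1, Slc6a17 and Slc22a3. The 250 bases before the annotated start are shown for these 3 genes, so that the one that was lower and the 2 with higher values can be set side by side. Capitals mark matches, on either strand, to 6 motifs: the GC box GGGCGG, the CCAAT box CCAAT, the TATA box TATAAA, the AP-1 site TGANTCA, the E-box CACGTG and a core of the metal response element, TGCGCNC. The Slc35a1 window is chr4:34687439-34687688, the Slc6a17 window chr3:107518019-107518268 and the Slc22a3 window chr17:12507705-12507954, all on the minus strand.
Slc35a1: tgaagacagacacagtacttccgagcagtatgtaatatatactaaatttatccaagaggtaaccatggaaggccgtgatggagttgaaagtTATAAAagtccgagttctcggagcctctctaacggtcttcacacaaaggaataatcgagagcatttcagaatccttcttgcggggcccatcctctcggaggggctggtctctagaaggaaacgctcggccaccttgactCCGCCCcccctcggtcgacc
Slc6a17: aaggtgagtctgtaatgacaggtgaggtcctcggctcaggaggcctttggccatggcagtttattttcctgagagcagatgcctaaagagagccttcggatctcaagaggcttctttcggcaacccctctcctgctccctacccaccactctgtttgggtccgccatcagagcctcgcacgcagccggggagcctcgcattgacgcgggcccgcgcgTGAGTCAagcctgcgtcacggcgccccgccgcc
Slc22a3: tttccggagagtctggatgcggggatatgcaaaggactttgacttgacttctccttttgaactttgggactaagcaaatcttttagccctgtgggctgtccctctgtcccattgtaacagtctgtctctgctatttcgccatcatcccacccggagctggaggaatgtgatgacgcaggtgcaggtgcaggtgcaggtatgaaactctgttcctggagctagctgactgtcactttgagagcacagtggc
The Slc35a1 window held a TATA box match and a GC box match, which do not overlap. The Slc6a17 window held 1 match to the AP-1 site, and the Slc22a3 window none to any of the 6 motifs. Among all 32851 promoter windows, 32.7% held the GC box, 33.8% the CCAAT box, 12.4% the TATA box, 6.75% the AP-1 site, 6.02% the E-box and 12.5% the metal response core. A match is a string of letters and no binding site, and no match says only that these letters are not in this window.

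Slc6a17, which carries neutral amino acids into synaptic vesicles of neurons, and Slc22a3, the organic cation transporter OCT3, came next after the called members. Slc6a17 had 910.2 and 587 normalised counts in the mVEGF-C libraries, against 77.9 and 27.8 in the eGFP libraries, with the groups apart, and a log2 fold change of 3.94 ± 1.26 (SE, limma, adjusted p = 0.0675). Slc22a3 had 75.8 and 343 normalised counts in the mVEGF-C libraries, against 8.95 and 10.7 in the eGFP libraries, also apart (log2 fold change 3.91, limma, adjusted p = 0.0898). Neither was called in the main limma test or by edgeR on the recovered reads (edgeR adjusted p = 0.117 and 0.0704). After quantile normalization limma called both (limma adjusted p = 0.0444 and 0.0471). DESeq2 on the same reads called both (adjusted p = 0.000852 and 0.00116). Over the whole table DESeq2 called 283 genes higher and 318 lower, against 75 and 119 in limma and 67 and 79 in edgeR.

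Among the 140 members with a mean of 50 or more, 61 had separate groups, or 43.6%, against 38.7% of all genes at such a mean. Of the members 30 were higher (21.4%, against 19.6% of all genes) and 31 lower (22.1%, against 19.1%). Next to Slc10a3, Slc16a6, Slc6a17 and Slc22a3, the 12 highest were Slc25a45, Slc12a9, Slc37a2, Slc50a1, Slc35a5, Slc24a1, Slc39a3 and Slc25a48, at log2 fold changes of 2.41 to 3.41. The 12 lowest, after Slc39a6 and Slc35a1, were Slc35g1, Slc39a8, Slc10a6, Slc15a2, Slc36a4, Slc4a4, Slc4a2, Slc7a14, Slc43a2 and Slc25a17, at -2.87 to -1.74. None of these 8 higher and 10 lower genes was called in limma, with adjusted p of 0.126 to 0.485 and 0.11 to 0.671. They recur below under their substrates, beside other members that were picked for their role after their values were seen.

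**Figure D2:**
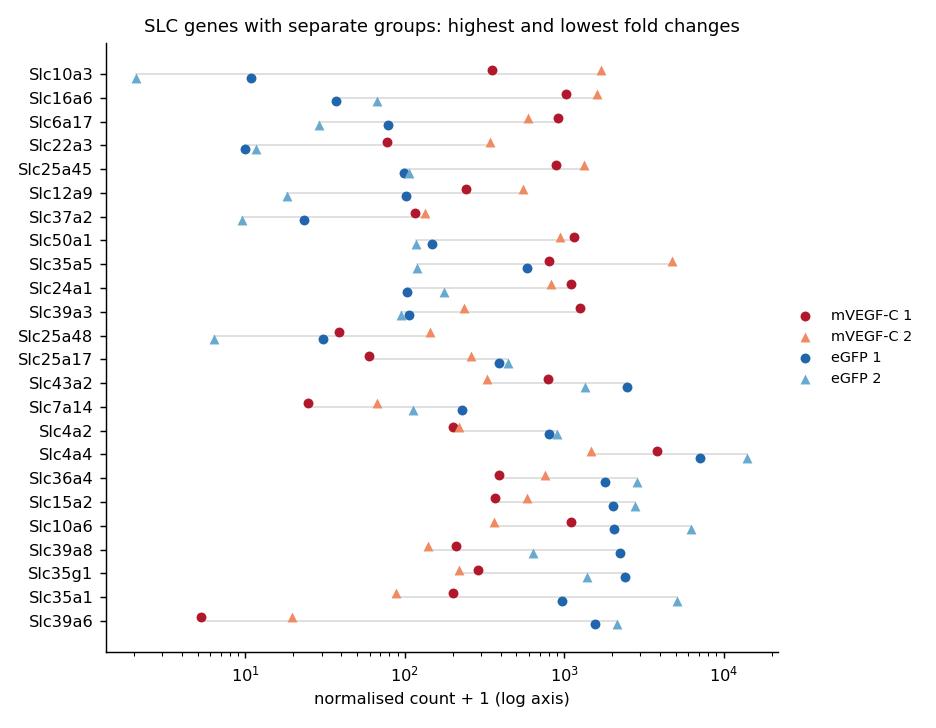
Normalised count + 1 (log axis) in each of the 4 libraries for the 12 highest and 12 lowest members with separate groups and a mean of at least 50, ordered by fold change, with mVEGF-C in red and orange and eGFP in blue. In each line the 2 mVEGF-C points lie on 1 side of the 2 eGFP points, as the choice of these genes requires. The gap between the nearest points of the groups is widest for Slc39a6, then for Slc10a3, and narrow for genes such as Slc25a48.

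Substrate classes were formed from the family numbers, and their medians lay between -0.85 and 1.51 on the log2 scale. Some members therefore carry other substrates than their class name says, such as Slc5a6 among the other sugars. The classes with at least 5 members had medians of -0.66 (amino acids, 24 members), -0.41 (nucleotide sugars, 12), -0.28 (mitochondrial carriers, 21), -0.03 (ion exchange and acid-base, 22), 0.01 (vitamins, 5), 0.13 (zinc, 15), 0.38 (organic ions, bile acids and drugs, 14), 0.43 (iron, copper and magnesium, 5), 0.68 (mono- and dicarboxylates, 7) and 1.51 (sugars other than the GLUT family, 7). Single libraries set the sign of several medians. That of amino acids was 0.20 without mVEGF-C 1, and that of organic ions -0.25 without eGFP 1. That of zinc was -0.78 without eGFP 1, -0.32 without mVEGF-C 2 and -0.25 at a mean of at least 50. That of vitamins was -0.62 without mVEGF-C 2, -0.11 without eGFP 1 and 0.40 without mVEGF-C 1. That of iron, copper and magnesium was -0.29 without mVEGF-C 1 and -0.31 without eGFP 2, and that of ion exchange 0.24 without mVEGF-C 1 and 0.41 without eGFP 1. The medians of mitochondrial carriers, nucleotide sugars, carboxylates and other sugars kept their sign whichever library was left out. Over all genes tested 2.14% were called, so 0 called in a class or list of this size does not show that it was unchanged. Where a bare value follows the counts of a gene in brackets, it is its log2 fold change.

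**Figure D3:**
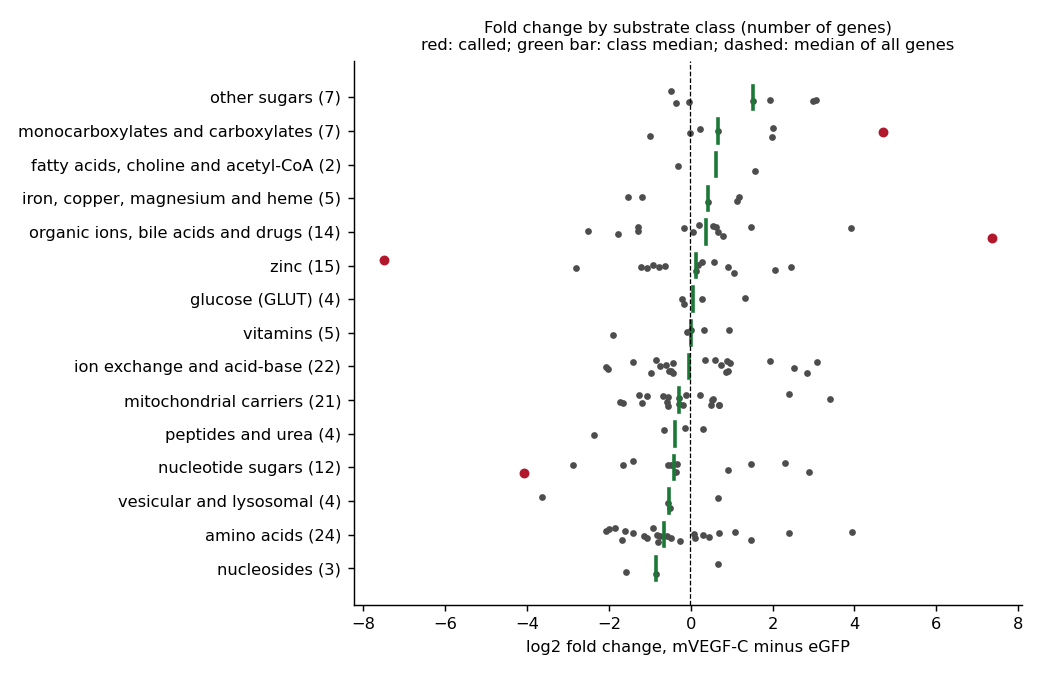
Log2 fold change (mVEGF-C minus eGFP) of every member by substrate class, ordered by class median (green bar), with the number of genes in brackets, called members in red, others in grey, and the median of all genes tested as a dashed line. The points of most classes straddle the dashed line, and each of the 4 called members stands alone in its class.

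Zinc carriers come in opposed families: Slc30 proteins (ZnT) move zinc out of the cytosol, and Slc39 proteins (ZIP) move it in. The 5 Slc30 genes lay at log2 fold changes of -0.77 to 0.27, and the groups overlapped for each of them. Over all genes tested, 39.2% had separate groups. Slc30a1, the exporter of the plasma membrane, had 1473 and 4207 normalised counts in the mVEGF-C libraries, against 863 and 6017 in the eGFP libraries. The second library of each group was the higher one, and the groups overlapped (log2 fold change 0.13, interval -1.61 to 1.87, turning to -0.25 in edgeR and -0.28 in DESeq2). Slc30a7, which loads the Golgi with zinc, had 2963 and 4333 normalised counts in the mVEGF-C libraries, against 1650.3 and 6136 in the eGFP libraries, with the same order of libraries. Its difference of 0.17 was -0.073 in edgeR and -0.095 in DESeq2.

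The log2 fold changes of the 10 Slc39 genes ranged from -7.49 to 2.45, with 5 above and 5 below 0. The groups were separate for 7 of the 10, against 39.2% of all genes tested. Slc39a6 was the 1 called. Slc39a10, whose protein ZIP10 forms a heteromer with ZIP6, had 586 and 782 normalised counts in the mVEGF-C libraries, against 772 and 2130.4 in the eGFP libraries, with overlapping groups (log2 fold change -0.92, limma adjusted p = 0.86). The ratio of Slc39a6 to Slc39a10 normalised counts was 0.00729 and 0.0238 in the mVEGF-C libraries, against 2.03 and 0.998 in the eGFP libraries. Slc39a8, an importer of zinc and manganese, had 208 and 138 normalised counts in the mVEGF-C libraries, against 2226 and 632 in the eGFP libraries, lower in both treated libraries without a call (log2 fold change -2.80, limma adjusted p = 0.255, edgeR 0.231, called by DESeq2 at 0.0154). Slc39a7, which releases zinc from the endoplasmic reticulum, had 657 and 369.8 normalised counts in the mVEGF-C libraries, against 974 and 1323 in the eGFP libraries, without overlap. Its exons share 2084 bases, 80.7% of their length, with Gm20427 on the same strand. Gm20427 has no row here, so reads from the shared stretch cannot be assigned to 1 of the 2 genes.

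On the other side, Slc39a3, an importer of the plasma membrane, had 1252 and 235 normalised counts in the mVEGF-C libraries, against 105 and 93 in the eGFP libraries, with a log2 fold change of 2.45 (limma adjusted p = 0.423, edgeR 0.284, called by DESeq2 at 0.0373). Slc39a1, a widely expressed importer, had 1492 and 2094 normalised counts in the mVEGF-C libraries, against 936 and 758 in the eGFP libraries, also without overlap (1.07, limma adjusted p = 0.804). Slc39a13, whose protein ZIP13 acts in connective tissue, had 6575 and 3297 normalised counts in the mVEGF-C libraries, against 381 and 3205 in the eGFP libraries, where mVEGF-C 2 and eGFP 2 were nearly equal. Slc39a4, the zinc importer of the gut, had 689 and 556 normalised counts in the mVEGF-C libraries, against 218 and 499 in the eGFP libraries. Of 18 listed genes of zinc and metal handling outside the SLC name, 8 were in the table. Among these 0 were called, against 2.14% of all genes tested. The iron storage gene Ftl1 differed by 1.05, the ferroxidase gene Heph by -1.44 and Hmox1, the heme-degrading enzyme, by -1.45, the largest of the 8 in size. The metallothionein genes Mt1 and Mt2 have no row and are not analysed here.

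**Figure D4:**
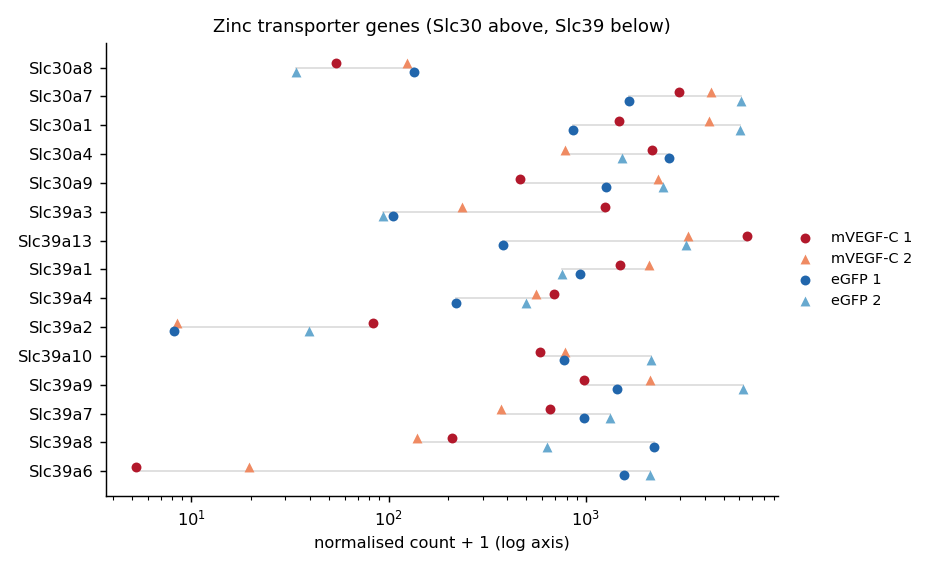
Normalised count + 1 (log axis) of the 15 zinc transporter genes in each library, with the exporters (Slc30) above and the importers (Slc39) below. The 5 exporters interleave the groups, whereas Slc39a6 puts the mVEGF-C libraries at 4.27 and 18.6 and the eGFP libraries at 1568 and 2127.

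Amino acid carriers had 15 of 24 members below 0 and a median of -0.66, against -0.02 over all genes. In this class 0 were called, against 2.14% of all genes tested. The cationic and heteromeric family Slc7 had 5 of 6 members below 0. Slc7a2, the arginine and lysine carrier CAT2 and the most abundant of them by reads, had 6612 and 2427 normalised counts in the mVEGF-C libraries, against 5634 and 20250.1 in the eGFP libraries. The control libraries differed by 1.85 from each other on the log2 scale. The log2 fold change, a difference of mean log2 values, was -1.41 (interval -2.68 to -0.15, limma adjusted p = 0.317). Slc7a1 (CAT1) had 896 and 226 normalised counts in the mVEGF-C libraries, against 1545 and 463 in the eGFP libraries, a difference of -0.91 that turned to 0.08 without mVEGF-C 2. Slc7a11, the cystine and glutamate exchanger xCT, had 481 and 1446 normalised counts in the mVEGF-C libraries, against 683 and 2006 in the eGFP libraries, with replicate 2 the higher in both groups. Slc7a14, a lysosomal protein of the family, had 23.5 and 66 normalised counts in the mVEGF-C libraries, against 226 and 112 in the eGFP libraries, with separate groups (-1.98, limma adjusted p = 0.622).

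LAT1, the carrier of leucine and other large neutral amino acids, is a pair of Slc7a5 and the heavy chain Slc3a2. Slc7a5 had 822 and 678 normalised counts in the mVEGF-C libraries, against 887 and 1964 in the eGFP libraries, slightly apart (-0.82, limma adjusted p = 0.879). Slc3a2 had 372 and 2989.7 normalised counts in the mVEGF-C libraries, against 2380.1 and 4363 in the eGFP libraries, where mVEGF-C 1 alone was low (-1.61, limma adjusted p = 0.547). The ratio of Slc3a2 to Slc7a5 was 0.453 and 4.41 in the mVEGF-C libraries, against 2.68 and 2.22 in the eGFP libraries, so the pair did not vary together in the treated libraries. Slc43a2, the sodium-independent leucine carrier LAT4, had 795 and 326 normalised counts in the mVEGF-C libraries, against 2491 and 1350.1 in the eGFP libraries, with separate groups (-1.85, limma adjusted p = 0.542). Slc43a3 had 16707 and 3754 normalised counts in the mVEGF-C libraries, against 6266 and 8682 in the eGFP libraries, with mVEGF-C 1 high and mVEGF-C 2 low.

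The Slc36 carriers of lysosome and endosome, Slc36a1 and Slc36a4, both had negative fold changes. Slc36a4 had 388 and 753 normalised counts in the mVEGF-C libraries, against 1809.7 and 2873 in the eGFP libraries, without overlap (-2.08, limma adjusted p = 0.42). Slc36a1, through which amino acids leave the lysosome, had 292 and 394 normalised counts in the mVEGF-C libraries, against 387 and 3058 in the eGFP libraries, where eGFP 2 alone was high. The sodium-coupled Slc38 family gave 3 of 5 members above 0. Slc38a6 had 11668 and 17581 normalised counts in the mVEGF-C libraries, against 9776 and 8050.2 in the eGFP libraries, without overlap (0.69, interval -0.32 to 1.71, limma adjusted p = 0.694). Slc38a10 had 1712 and 3060.3 normalised counts in the mVEGF-C libraries, against 636 and 1069 in the eGFP libraries, also without overlap (1.47). Slc1a5, the glutamine carrier ASCT2, had 111 and 650.3 normalised counts in the mVEGF-C libraries, against 464 and 756 in the eGFP libraries, where mVEGF-C 1 alone stood low, and its difference of -1.13 turned to 0.14 without that library. The neuronal glutamate carrier Slc1a1 had 335 and 20.4 normalised counts in the mVEGF-C libraries, against 17.9 and 12.8 in the eGFP libraries, high in mVEGF-C 1 only.

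Outside the SLC name, 8 of 18 listed genes of the amino acid response were in the table. Among these 0 were called, against 2.14% of all genes tested. Of the 8, 5 were above 0 and 3 below, with a median of 0.49. Castor2, of the arginine sensor family upstream of mTORC1, had 1756 and 1413 normalised counts in the mVEGF-C libraries, against 405 and 295 in the eGFP libraries (log2 fold change 2.19, limma adjusted p = 0.426). Atf4, the transcription factor of the response, had 719 and 124 normalised counts in the mVEGF-C libraries, against 741 and 805 in the eGFP libraries (-1.36). Its groups were barely apart, and the distance rested on mVEGF-C 2. Mtor had 1262 and 1168 normalised counts in the mVEGF-C libraries, against 4082 and 1823 in the eGFP libraries (-1.17). Both genes were lower in the treated libraries without a call.

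**Figure D5:**
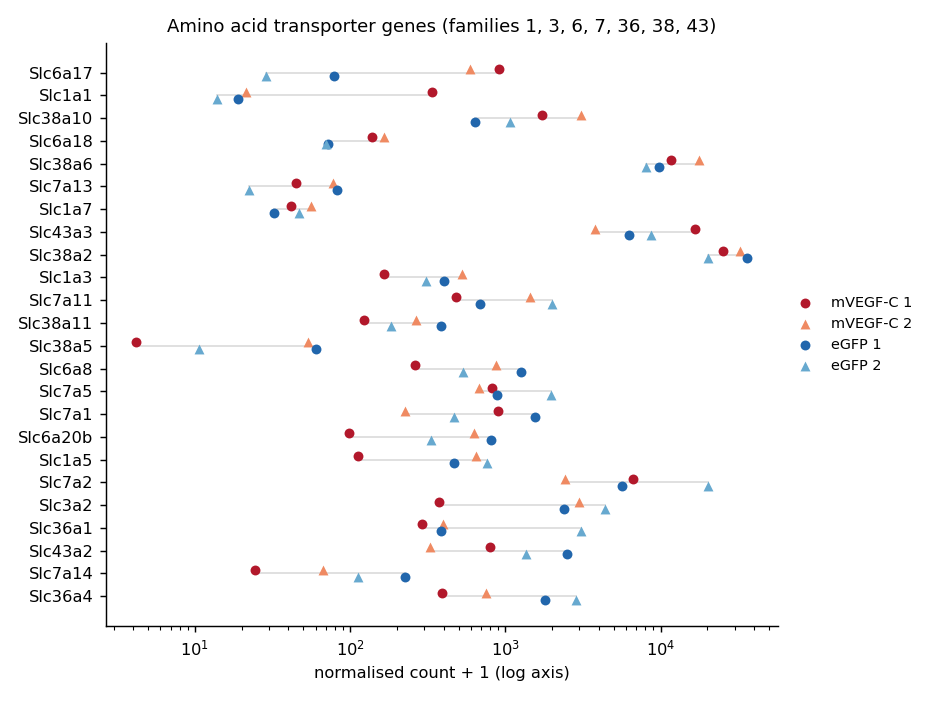
Normalised count + 1 (log axis) of the 24 amino acid transporter genes in each library, ordered by fold change. Slc38a2 lies at 20275 or above in every library with the groups interleaved, and the groups are apart for 9 of the 24 genes, 5 with mVEGF-C higher and 4 with mVEGF-C lower, against 39.2% of all genes tested (19.4% higher and 19.8% lower).

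Glucose carriers of the GLUT family (Slc2) did not separate the groups for any of their 4 members, where 39.2% of all genes tested had separate groups. Slc2a1, the GLUT1 of blood-brain barrier endothelium, had 2475 and 2798 normalised counts in the mVEGF-C libraries, against 3278 and 1457 in the eGFP libraries, with both treated libraries inside the range of the controls (0.27, interval -1.47 to 2.01, limma adjusted p = 0.968). Slc2a10 had 250.0 and 606 normalised counts in the mVEGF-C libraries, against 94 and 250.1 in the eGFP libraries (1.34), Slc2a13, a proton and myo-inositol symporter, 1064 and 172 in mVEGF-C, against 523 and 445 in eGFP, and the liver and islet gene Slc2a2 42.7 and 39.9 in mVEGF-C, against 22.4 and 100.5 in eGFP. The intervals of these genes reach beyond 1 in both directions, so these libraries do not show that glucose carriers stayed the same. Of 14 glucose use genes tested from a list of 17, 0 were called, against 2.14% of all genes tested. G6pdx, which opens the pentose phosphate pathway, had 11.8 and 112 normalised counts in the mVEGF-C libraries, against 1089.8 and 368 in the eGFP libraries (-4.06, limma adjusted p = 0.0597), Ldha, which makes lactate, had 231 and 13 in mVEGF-C, against 853 and 344 in eGFP (-3.25), and Gapdh had 12669.8 and 16831 in mVEGF-C, against 5256 and 6004 in eGFP (1.38).

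Sugar carriers outside the GLUT family had 0 members called, against 2.14% of all genes tested. The groups were separate for 3 of the 7, each higher in mVEGF-C, where 39.2% of all genes tested had separate groups and 19.4% were higher. Slc50a1, the animal SWEET sugar transporter, had 1144 and 937 normalised counts in the mVEGF-C libraries, against 146 and 117 in the eGFP libraries, with close replicates in both groups (2.98, limma adjusted p = 0.216, edgeR 0.256, called by DESeq2 at 0.00646). Slc37a2, a sugar phosphate and phosphate exchanger of the endoplasmic reticulum, had 115 and 133 normalised counts in the mVEGF-C libraries, against 22.4 and 8.55 in the eGFP libraries (3.06, limma adjusted p = 0.265, edgeR 0.282, called by DESeq2 at 0.0407). Slc5a4b had 68.4 and 139 normalised counts in the mVEGF-C libraries, against 34 and 33.1 in the eGFP libraries (1.51). Slc5a3, the sodium and myo-inositol cotransporter and the most abundant of the class, had 3203 and 1183 normalised counts in the mVEGF-C libraries, against 3149 and 1991 in the eGFP libraries, with overlap (-0.36, turning to 0.35 without mVEGF-C 2). Slc5a6, the carrier of biotin and pantothenate, had 87.6 and 1016 normalised counts in the mVEGF-C libraries, against 138 and 43.8 in the eGFP libraries, high in mVEGF-C 2 only. Slc5a6 is counted in this class by its family number, on the higher side, although its substrates are not sugars. The class median without Slc5a6 was not computed. Leaving out mVEGF-C 2 brought the class median to 0.35.

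Mitochondrial carriers (Slc25) had 13 of 21 members below 0, a median of -0.28 and 0 called, against 2.14% called over all genes tested. The phosphate carrier Slc25a3, the most abundant by reads, had 2061 and 8987 normalised counts in the mVEGF-C libraries, against 4855 and 1812 in the eGFP libraries, where mVEGF-C 2 alone was high (0.54, turning to -0.53 without it). The ADP/ATP carriers Slc25a4 (ANT1) and Slc25a5 (ANT2) are the main exchangers of the inner membrane. Slc25a4 had 3129 and 1844 normalised counts in the mVEGF-C libraries, against 1777 and 4270.4 in the eGFP libraries. Slc25a5 had 1679 and 1021 normalised counts in the mVEGF-C libraries, against 2618 and 967 in the eGFP libraries. The difference of -0.20 in Slc25a4 turned to 0.43 without eGFP 2, and that of -0.28 in Slc25a5 to 0.44 without eGFP 1. The ratio of Slc25a4 to Slc25a5 was 1.86 and 1.81 in the mVEGF-C libraries, against 0.679 and 4.41 in the eGFP libraries. Slc25a37, the mitochondrial iron importer mitoferrin 1, had 2106 and 2247 normalised counts in the mVEGF-C libraries, against 2769 and 2578 in the eGFP libraries, without overlap and close to equal (-0.30).

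The widest differences of this family were those of Slc25a45 and Slc25a48. Slc25a45 had 885 and 1328 normalised counts in the mVEGF-C libraries, against 97.6 and 105 in the eGFP libraries, with close replicates (3.41 ± 1.22, SE, limma adjusted p = 0.126, edgeR 0.159, called by DESeq2 at 0.000985). Slc25a48 had 37.4 and 142 normalised counts in the mVEGF-C libraries, against 29.5 and 5.34 in the eGFP libraries (2.41). Slc25a17, which serves peroxisomes, had 58.8 and 257 normalised counts in the mVEGF-C libraries, against 386 and 441 in the eGFP libraries, without overlap (-1.74, limma adjusted p = 0.671). The aspartate and glutamate carrier Slc25a12 had 747 and 1517 normalised counts in the mVEGF-C libraries, against 5998 and 1090.3 in the eGFP libraries, high in eGFP 1 only, and the calcium-sensitive ATP-Mg and phosphate carrier Slc25a24 1849 and 391 in mVEGF-C, against 748 and 5057 in eGFP. Slc25a51, the importer of NAD, had 1252 and 1207 normalised counts in the mVEGF-C libraries, against 1054 and 1060.4 in the eGFP libraries, close in all 4 libraries, with a difference of 0.22.

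Ion exchangers gave 11 members above and 11 below 0, with a median of -0.03 (-0.43 over those with a mean of at least 50). In this class 0 were called, against 2.14% of all genes tested. The bicarbonate family held fold changes of either sign. Slc4a10 had 13457 and 23547 normalised counts in the mVEGF-C libraries, against 16673 and 5827 in the eGFP libraries, with overlap (0.85, limma adjusted p = 0.517). Slc4a4, the sodium bicarbonate cotransporter NBCe1, had 3829 and 1478 normalised counts in the mVEGF-C libraries, against 7082 and 14042 in the eGFP libraries, without overlap (-2.07, interval -3.47 to -0.67, limma adjusted p = 0.11). The ratio of Slc4a10 to Slc4a4 was 3.51 and 15.9 in the mVEGF-C libraries, against 2.35 and 0.415 in the eGFP libraries. Slc4a2, the chloride and bicarbonate exchanger AE2, had 201 and 216 normalised counts in the mVEGF-C libraries, against 806 and 898 in the eGFP libraries, with close replicates on both sides (-2.02, limma adjusted p = 0.548). Its exons share 1141 bases with Fastk on the opposite strand.

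Several of these carriers are also known from choroid plexus epithelium, whose hallmark gene Ttr was called lower, as given above (log2 fold change -3.76, limma adjusted p = 0.00306). Of the genes listed with it, Cldn11 and Dpp4 overlapped between the groups (0.38 and -1.03). Epcam and Cdh1 have no row here, and the part of such cells in these values was not tested. Slc15a2, the peptide carrier PEPT2 of the same epithelium, had 366 and 582 normalised counts in the mVEGF-C libraries, against 2019 and 2759 in the eGFP libraries, without overlap (-2.35, limma adjusted p = 0.311). Slc12a2, the sodium, potassium and chloride cotransporter NKCC1, had 1485 and 4557 normalised counts in the mVEGF-C libraries, against 3802 and 771 in the eGFP libraries, where mVEGF-C 2 and eGFP 1 were both high (0.60, limma adjusted p = 0.9).

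Among the other exchangers, Slc12a9, an orphan of the cation-chloride family, had 239 and 547 normalised counts in the mVEGF-C libraries, against 100.3 and 17.1 in the eGFP libraries (3.08, limma adjusted p = 0.239). Slc24a1, the sodium, calcium and potassium exchanger known from retinal rods, had 1106 and 826 normalised counts in the mVEGF-C libraries, against 102 and 174 in the eGFP libraries (2.83, limma adjusted p = 0.261, edgeR 0.303, called by DESeq2 at 0.0147). Its relative Slc24a4 had 57.7 and 28.8 normalised counts in the mVEGF-C libraries, against 8.95 and 4.28 in the eGFP libraries. Both genes lay higher in the treated libraries without a call, where 19.4% of all genes tested had separate groups with mVEGF-C higher. The eGFP values of Slc24a4 were near the floor. The sulfate carrier Slc26a2 had 2514 and 6558 normalised counts in the mVEGF-C libraries, against 9422 and 6618 in the eGFP libraries, barely apart (-0.96, limma adjusted p = 0.66). Slc9a9, an endosomal sodium and proton exchanger, had 2622 and 2388 normalised counts in the mVEGF-C libraries, against 4115 and 4314 in the eGFP libraries, with tight replicates and no overlap at a difference of -0.75. Slc9a3r2 carries an SLC symbol but encodes NHERF2, an adaptor that anchors exchangers, and had 1877 and 2173 normalised counts in the mVEGF-C libraries, against 3305 and 2226 in the eGFP libraries (-0.43).

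Carboxylate carriers had 5 of 7 members above 0 and a median of 0.68, which was 2.05 without mVEGF-C 1. Apart from Slc16a6, no member was called. Slc16a1, the lactate and pyruvate carrier MCT1, had 694 and 298 normalised counts in the mVEGF-C libraries, against 1107 and 739 in the eGFP libraries, lower in both treated libraries (-0.99, interval -3.22 to 1.25, limma adjusted p = 0.859). Slc16a9, the most abundant of the class, had 2021 and 1759 normalised counts in the mVEGF-C libraries, against 1046 and 2472 in the eGFP libraries, where eGFP 1 and eGFP 2 enclosed both treated libraries (0.23). The dicarboxylate carrier Slc13a3 had 141 and 349 normalised counts in the mVEGF-C libraries, against 116 and 25.7 in the eGFP libraries (2.00, limma adjusted p = 0.611). The sulfate carrier Slc13a4 had 1357 and 1466 normalised counts in the mVEGF-C libraries, against 627 and 198 in the eGFP libraries (2.00, limma adjusted p = 0.511). Each is known from meningeal and arachnoid cells, and each was higher in both treated libraries without a call. Of the 11 members listed for such cells, 6 were above 0 and 5 below, with a median of 0.08.

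Nucleotide sugar carriers (Slc35) had 8 of 12 members below 0, with wide differences in both directions. Slc35g1 had 286 and 217 normalised counts in the mVEGF-C libraries, against 2421 and 1392 in the eGFP libraries, without overlap (-2.87, limma adjusted p = 0.196, edgeR 0.237, called by DESeq2 at 0.0092). Slc35a3, the carrier of UDP-N-acetylglucosamine, had 2354 and 1125 normalised counts in the mVEGF-C libraries, against 4280.2 and 6099 in the eGFP libraries (-1.65), also apart. Higher in both treated libraries were Slc35a5, with 803 and 4723 in mVEGF-C, against 582 and 118 in eGFP (2.89, limma adjusted p = 0.186), and Slc35e2, an orphan with 11331 and 2757 in mVEGF-C, against 992 and 1306 in eGFP (2.29, limma adjusted p = 0.175). In Slc35e2 the distance rested on mVEGF-C 1, and in Slc35a5 on mVEGF-C 2. Slc35b4 had 1193 and 826 in mVEGF-C, against 1748 and 1215 in eGFP, without overlap, and Slc35d1 671 and 380.0 in mVEGF-C, against 715 and 568 in eGFP, with overlap.

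Organic anion and cation carriers had 9 of 14 members above 0. In the bile acid family, Slc10a6, a carrier of sulfated steroids, had 1102 and 361 normalised counts in the mVEGF-C libraries, against 2043 and 6232 in the eGFP libraries, without overlap and opposite in sign to Slc10a3 (-2.50, limma adjusted p = 0.203). Slco3a1 had 8539 and 9934 normalised counts in the mVEGF-C libraries, against 5797 and 13345 in the eGFP libraries (0.07, limma adjusted p = 0.989), and its sign turned under every rescaling tried. Slco2a1, the prostaglandin transporter, had 1169.8 and 898 normalised counts in the mVEGF-C libraries, against 5278 and 1181 in the eGFP libraries, where eGFP 1 alone was high (-1.28, limma adjusted p = 0.705). Slco1a4, a transporter of brain capillary endothelium, had 7012 and 569 normalised counts in the mVEGF-C libraries, against 614 and 2786 in the eGFP libraries, with mVEGF-C 1 high and mVEGF-C 2 the lowest of all 4. Slc22a23 had 871 and 1622 normalised counts in the mVEGF-C libraries, against 2386 and 3537 in the eGFP libraries, without overlap (-1.29), and the carnitine carrier Slc22a5 957 and 257 in mVEGF-C, against 313 and 586 in eGFP.

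Vitamin carriers had a median of 0.01, which was -0.07 at the same total and -0.06 at the same upper quartile, and Slc23a2, described above, was by far the most abundant. Slc19a3, the thiamine carrier, had 97.2 and 328 normalised counts in the mVEGF-C libraries, against 266 and 1697 in the eGFP libraries, with overlap (-1.91, limma adjusted p = 0.602), and Slc19a1, the reduced folate carrier, 175 and 1509.7 in mVEGF-C, against 230.1 and 314 in eGFP, high in mVEGF-C 2 only. The nucleoside carrier Slc29a1 (ENT1) had 816 and 426 normalised counts in the mVEGF-C libraries, against 1357 and 2259 in the eGFP libraries, lower in both treated libraries (-1.57, interval -3.66 to 0.52, limma adjusted p = 0.642). Its lysosomal relative Slc29a3 (ENT3) had 5306 and 1271 normalised counts in the mVEGF-C libraries, against 1477 and 1820.4 in the eGFP libraries, high in mVEGF-C 1 only. Slc44a1, a choline carrier, had 8211 and 3111 normalised counts in the mVEGF-C libraries, against 3312 and 882 in the eGFP libraries (1.56, limma adjusted p = 0.468).

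Copper carriers had fold changes of either sign. Slc31a1, the high-affinity importer CTR1, had 3517 and 2435 normalised counts in the mVEGF-C libraries, against 4439 and 10014 in the eGFP libraries, lower in both treated libraries (-1.19, interval -2.63 to 0.26, limma adjusted p = 0.579). Slc31a2, its relative of the endosome, had 3059.6 and 6446 normalised counts in the mVEGF-C libraries, against 3532 and 1168 in the eGFP libraries, with overlap and a difference of 1.13. Slc11a2, the iron importer DMT1, had 1109.9 and 409.7 normalised counts in the mVEGF-C libraries, against 837 and 299 in the eGFP libraries, where replicate 1 was the higher in both groups (0.43, turning to -0.29 without mVEGF-C 1 and -0.31 without eGFP 2). The magnesium carriers Slc41a1 and Slc41a2 differed by 1.17 and -1.53. Slc40a1, the iron exporter ferroportin, has no row and is not analysed here.

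Transport genes outside the SLC name gave 0 calls among 57 tested, where 2.14% is the share over all genes. Of 8 sodium-potassium pump genes, which set the gradient that sodium-coupled carriers use, 6 were above 0, with a median of 0.37. The regulator Fxyd6 had the widest difference, with 2083 and 696 normalised counts in the mVEGF-C libraries, against 109 and 429.7 in the eGFP libraries (2.47, limma adjusted p = 0.351). Of 8 vacuolar proton pump genes 6 were below 0, with Atp6v1d at -2.98 (limma adjusted p = 0.218). Of 17 ABC transporter genes 10 were below 0, with Abcc1, an exporter of glutathione conjugates, at 2.56 (limma adjusted p = 0.155). Of 24 genes of the MFSD family and of carriers under other names, 14 were below 0, with Mfsd2b, a sphingosine 1-phosphate exporter of blood cells, at -3.10 (limma adjusted p = 0.25).

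Members listed as marks of other cells had fold changes of both signs. None of these lists held a called member, where 2.14% of all genes tested were called. Of 13 members listed for brain blood endothelium 9 were below 0 and 4 above, with a median of -0.82 and 0 called. Their summed level was 27112 to 32421 in mVEGF-C, against 26074 to 27921 in eGFP libraries. Slco2b1 made up most of the mVEGF-C sums, with 17295 and 15072 normalised counts, against 9262 and 9368 in the eGFP libraries. The sums therefore do not reflect the 9 members below 0. Of 11 listed for meningeal fibroblasts and arachnoid cells 6 were above 0, with a median of 0.08, 0 called and sums of 65564 to 87427 in mVEGF-C, against 64733 to 86627 in eGFP libraries. Of 4 members listed for macrophages 2 were above 0, of 2 listed for neural and glial cells both were above, and of 2 listed for erythroid cells both were below, with 0 called in each list. The brain capillary genes Slco1c1 and Slc22a8, the arachnoid gene Slc47a1 and the neuronal genes Slc17a7 and Slc32a1 have no row and are not analysed here.

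The spread between replicates limited how much could be seen. Among members the median gap between the 2 libraries of a group was 1.07 on the log2 scale in mVEGF-C and 0.98 in eGFP, against 1.07 and 0.94 over all genes. The median difference between groups was 0.85. The gap is between single libraries and the difference between means of 2 libraries, so their sizes cannot be compared directly. Of the 152 members 14 had a library under 10 normalised counts, or 9.21% against 8.75% of all genes, and 1 value was 0, that of Slc17a2 in mVEGF-C 1. Slc17a2 had 0 and 6.50 normalised counts in the mVEGF-C libraries, against 17 and 64.1 in the eGFP libraries, and its fitted log2 fold change of -3.64 depends on the pseudocount. Exon bases were shared with another annotated gene for 48 members, on the same strand for 10. The antisense transcripts Slc13a2os and Slc36a1os match the name rule but are no carriers. Slc13a2os had 41.7 and 68.8 normalised counts in the mVEGF-C libraries, against 37.6 and 46 in the eGFP libraries. Slc36a1os had 22.4 and 33.4 normalised counts in the mVEGF-C libraries, against 19.7 and 3.21 in the eGFP libraries.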

How the data were processed

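RNA was sequenced from sorted cells after extraction and linear amplification, per the labels' protocols. The authors deposited a signal per gene and library: read counts divided by 1 size factor per library, called normalised counts here. Per the submitters' processing notes, FastQC, Trimmomatic, Salmon and DESeq2 were used on mm10, with no versions given. For strand setting and counting annotation, nothing is given in the sources used here. In every library 100% of the values were whole multiples of 1 read within 0.001, so reads were recovered by division, giving 25610683 to 28632461 per library. With 2 libraries a group, the spread between libraries is poorly known.

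The main test was limma 3.58.1 in R 4.3.3 (lmFit, eBayes with trend, two-sided) on log2(normalised count + 1) for genes with a mean of at least 10, with Benjamini-Hochberg adjustment over all 9063 genes tested and a threshold of 0.05. This scale understates the change of low genes. With 2 residual degrees of freedom and an infinite estimated prior, each gene's variance was that of the trend. The labels do not say how the pooled mice were split, so p-values measure the spread between libraries, each taken as a separate pool. Intervals are 95% limma intervals. The code was tried on simulated counts with a smaller spread between libraries than seen here and no limit on replicate agreement. That trial does not show how the test performs on these data. Alternatives were other pseudocounts (5 and 0.5), filters (none and 50), scalings, eBayes settings, a replicate block, edgeR 4.0.16 and DESeq2 1.42.0 on recovered reads, and each library left out.

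Coordinates (1-based) and exon lengths are from GENCODE vM21 on GRCm38 (mm10), matched by name. Members were taken by symbol, substrate classes by family number, and both, with the lists, were chosen with earlier results of these data known. The genes named are the called members, the 12 highest and 12 lowest with separate groups and a mean of at least 50, the 10 most abundant, the most abundant and most different member of each class of 5 or more, and a list of 32 members, of which 27 were in the table. Of the other lists, called genes and the most different gene were named; a few more were chosen after their values were seen. Some items that the rule covers are not reported here.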

Additional observations from a re-analysis of the deposited data

How the results depend on the processing

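Of 58 members named by rule, 42 kept the sign of their difference under every alternative tried, 16 turned when 1 library was left out and 4 in another setting. The members called higher numbered 4 with quantile normalization, 1 in eBayes without trend, 10 with DESeq2 on the recovered reads, and 0 (without eGFP 2) to 3 (without mVEGF-C 1) with 1 library left out. Those called lower numbered 1 in eBayes without trend, 4 with DESeq2, and 0 (without eGFP 2) to 2 with 1 library left out. Without eGFP 1 there was 1 call in each direction. The other scalings, filters and pseudocounts, robust eBayes and edgeR gave 2 in each direction. Over the whole table the calls were 75 higher and 119 lower, against 15 and 26 without trend, 283 and 318 with DESeq2, 19 and 19 without eGFP 1, 5 and 0 without eGFP 2, 188 lower without mVEGF-C 2 and 67 and 79 with edgeR. Outside the left-out libraries the sign turned for Slc30a1 (-0.25 in edgeR, -0.28 in DESeq2), Slc30a7 (-0.073 in edgeR, -0.095 in DESeq2), Slc38a2 (-0.0056 at the same total) and Slco3a1 (-0.017 at the same total, -0.0074 at the same upper quartile, -0.0066 with quantile normalization, -0.032 in edgeR, -0.052 in DESeq2). With 1 library left out, the log2 fold changes whose sign turned ran from -0.31 to 1.17 in Slc11a2, -0.55 to 1.75 in Slc12a2, -0.39 to 0.85 in Slc16a9, -2.40 to 0.14 in Slc1a5, -0.53 to 1.60 in Slc25a3, -0.83 to 0.43 in Slc25a4, -0.999 to 0.44 in Slc25a5, -0.32 to 0.85 in Slc2a1, -1.27 to 1.53 in Slc30a1, -0.78 to 1.12 in Slc30a7, -0.34 to 0.49 in Slc38a2, -0.97 to 1.18 in Slc43a3, -1.08 to 0.35 in Slc5a3, -1.90 to 0.084 in Slc7a1, -1.28 to 0.30 in Slc7a11 and -0.54 to 0.67 in Slco3a1. At a mean of at least 50 the median of ion exchangers was -0.43 and that of zinc carriers -0.25. The median of vitamin carriers was -0.07 at the same total and -0.06 at the same upper quartile. Over the left-out libraries, class medians ran from -0.90 to 0.20 for amino acids, -0.34 to 0.41 for ion exchange and acid-base, 0.68 to 2.05 for monocarboxylates and carboxylates, -0.78 to -0.11 for nucleotide sugars, -0.25 to 0.73 for organic ions, bile acids and drugs, 0.35 to 2.02 for other sugars and -0.78 to 0.40 for zinc. The cause of these shifts was not tested. The replicate numbers gave no pairing: deviations of same-numbered libraries correlated at r = 0.00013 across genes. With the replicate block, 2 members were called higher and 2 lower, and 74 and 129 genes over the table. A lone library left in a group is assumed to vary like the other group. With 2 libraries a group, an exact permutation test of a single gene cannot go below p = 0.333, and rows limited on replicate agreement make every p too small.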
